A study of Danio rerio with 2 samples.

Results

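The enzymes of the pentose phosphate pathway, with a pair of cytosolic enzymes that also make NADPH, were followed in whole zebrafish larvae kept in benzo[a]pyrene (BaP) or in solvent. The 9 genes were chosen by symbol, as pgd and pgls of the oxidative branch, taldo1, tkta, tktb, rpia and rpe of the non-oxidative branch, and me1 and idh1 as other NADPH sources. Each symbol matched 1 gene model, so that 9 of the 22849 genes in the deposited table were members. All 9 are annotated as protein-coding and all passed the filter on low values, at least 10 normalized reads in the libraries together.

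The larvae were wild-type animals of the AB strain, 6 days post fertilization (dpf). The BaP group had been kept in 1 µM BaP, a combustion product among the polycyclic aromatic hydrocarbons, and the control group in 0.1% dimethyl sulfoxide (DMSO), both between 3 and 6 dpf. Whether the BaP medium also held DMSO is not given in the labels. Each treatment was represented by 1 stranded mRNA library, made from RNA of 4 pooled biological replicates, so a difference between the libraries has no replicate check and no test between treatments was possible.

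Glucose 6-phosphate enters the pentose phosphate pathway in the cytosol. The oxidative branch turns it into ribulose 5-phosphate and carbon dioxide and reduces NADP to NADPH. The non-oxidative branch interconverts sugar phosphates, and links the pathway to ribose for nucleotides and to glycolysis in both directions. NADPH is the electron donor for glutathione and thioredoxin reductases, for cytochrome P450 reductase and for lipid synthesis. In mammals, several of these enzymes are known targets of the stress-responsive transcription factor Nrf2.

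The deposited values are normalized read counts rounded to whole numbers, with totals of 13443263 (DMSO) and 11968060 (BaP), which corresponded to about 19805379 and 21996449 estimated reads. The members together made up 0.0683% of all values with DMSO and 0.0884% with BaP. The 22 gene models of the list of organ markers of a whole larva, such as elavl3 of neurons, mylpfa of fast muscle and fabp10a of liver, were all detected in both libraries, the lowest with 37 normalized reads in the DMSO library. A ratio is the BaP value over the DMSO value. The interval beside it is a 95% exact (Clopper-Pearson) interval on the estimated reads, which covers counting error only. Without molecular identifiers, PCR copies of a molecule were counted again, which these intervals leave out. A gene was called when its ratio was at least 2 in either direction.

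Of the 9 members 1 was called higher, pgd, and 0 were called lower. Over all 21764 genes tested, 3.75% were called higher and 4.36% lower, and read against these shares 1 of 9 is not a result about the members as a group. Which direction held more genes depended on the scaling, with 817 higher and 948 lower as deposited and 1120 higher and 647 lower with equal totals. Below the 2-fold limit, taldo1, tktb, rpia, rpe and me1 had ratios between 1.26 and 1.51 with intervals above 1. As deposited, the intervals of tkta and idh1 lay below 1, and that of pgls included 1. In all, as deposited, 6 of 9 members had an interval above 1, against 18.4% of all genes tested, and 2 had one below 1, against 26.8%. At a limit of 1.5-fold, 2 members were higher as deposited, pgd and me1, and 0 lower, against 9.12% and 11.5% of all genes tested. With equal totals taldo1, tktb and rpia also passed this limit, with ratios of 1.66, 1.65 and 1.58. The share of all genes past 1.5-fold was not computed under that scaling. The reading by intervals was added after the values had been seen, and it was not repeated under other scalings, on which it depends. It also depends on depth, since abundant genes have narrow intervals. The median log2 ratio of the members was 0.50, and that of all genes tested was -0.06.

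**Figure D1:**
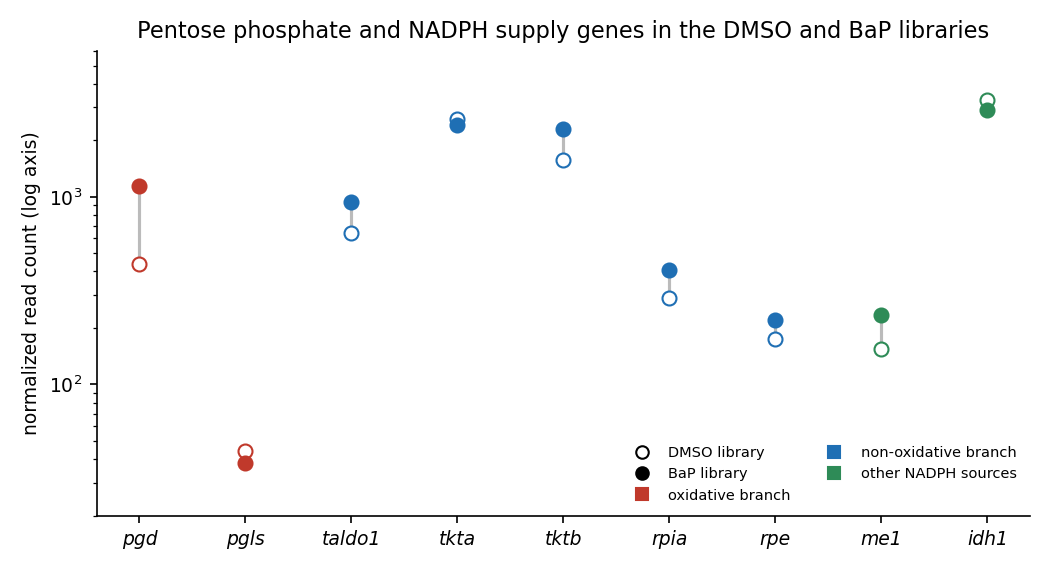
Normalized read count (log axis) of each member in the DMSO library (open circles) and the BaP library (filled circles), coloured by branch, with 1 library per treatment. The gap is widest for pgd (441 and 1144), and the filled circle lies below the open one for pgls, tkta and idh1; heights of different genes are not corrected for transcript length.

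In the oxidative branch the decarboxylating dehydrogenase gene was higher and the lactonase gene was not distinguishable from equality. The gene pgd (ENSDARG00000015343, chromosome 23, 29381441 to 29394505, minus strand) encodes 6-phosphogluconate dehydrogenase, which makes NADPH and ribulose 5-phosphate. It had 441 normalized reads with DMSO and 1144 with BaP, a ratio of 2.59 (95% interval 2.37 to 2.84). A larger ratio was found for 1.85% of all genes tested, and for 1.44% of the 4723 genes whose mean value lay within 2-fold of that of pgd.

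The gene pgls (ENSDARG00000021233, chromosome 3, 52684556 to 52700610, plus strand) encodes 6-phosphogluconolactonase, which opens the lactone just before the step of pgd. It had 44 normalized reads with DMSO and 38 with BaP, a ratio of 0.86 (95% interval 0.60 to 1.23). These values rest on about 65 and 70 estimated reads, the fewest of any member. Neighbouring steps of the same branch thus had ratios whose intervals did not overlap. Relative to pgls, pgd was 3.00 times as high in the BaP library as in the DMSO library (95% interval 2.08 to 4.32).

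The transketolase genes, which encode the enzyme that moves 2-carbon units between sugar phosphates, differed from each other. The gene tkta (ENSDARG00000029689, chromosome 11, 36989696 to 37035835, plus strand) had 2591 normalized reads with DMSO and 2411 with BaP, a ratio of 0.93 (95% interval 0.89 to 0.97). The gene tktb (ENSDARG00000006019, chromosome 23, 20113378 to 20126257, minus strand) had 1565 and 2295, a ratio of 1.47 (95% interval 1.39 to 1.54). The DMSO library was thus the higher one for tkta and the lower one for tktb. The direction of tkta depended on the scaling, since it was on the other side of equality when the totals of both libraries were made equal (log2 ratio 0.06, against -0.10 as deposited).

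The quotient of tktb to tkta does not depend on how the libraries were scaled, and it was 1.58 times as high in the BaP library (95% exact conditional interval 1.47 to 1.69). Of the estimated reads of both transketolase genes, tktb held 37.7% with DMSO (95% Clopper-Pearson interval 36.4 to 38.9) and 48.8% with BaP (47.7 to 49.8). These are shares of reads, which also depend on the length of each transcript. The sources used here do not say how reads that map to both paralogs were treated, so the split between them is uncertain to that extent. The name table used here pairs the gene model tktb with the symbol TKTL2, whereas the deposited table lists it as transketolase b.

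Transaldolase and the pentose phosphate isomerase and epimerase were closer to tktb than to tkta. The transaldolase gene taldo1 (ENSDARG00000103369, chromosome 18, 50795174 to 50799510, minus strand), whose enzyme moves 3-carbon units, had 640 and 943 normalized reads, a ratio of 1.47 (95% interval 1.36 to 1.60). For 9.49% of all genes tested the ratio was larger than that of taldo1, and for 9.61% larger than that of tktb. The quotient of taldo1 to tkta was 1.58 times as high in the BaP library (95% interval 1.44 to 1.73).

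The gene rpia (ENSDARG00000056640, chromosome 13, 13930263 to 13944288, plus strand) encodes ribose 5-phosphate isomerase, which makes the ribose used for nucleotides. It had 290 normalized reads with DMSO and 409 with BaP, a ratio of 1.41 (95% interval 1.25 to 1.59). The gene rpe (ENSDARG00000005251, chromosome 9, 24025444 to 24031461, minus strand) encodes ribulose-phosphate 3-epimerase, which feeds xylulose 5-phosphate to transketolase. It had 174 and 220 normalized reads, a ratio of 1.26 (95% interval 1.07 to 1.49). Both were on the BaP side of equality, with a larger ratio for 10.9% (rpia) and 16.8% (rpe) of all genes tested. The quotient of rpia to rpe had an interval that included no change (1.12, 95% interval 0.91 to 1.36).

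**Figure D2:**
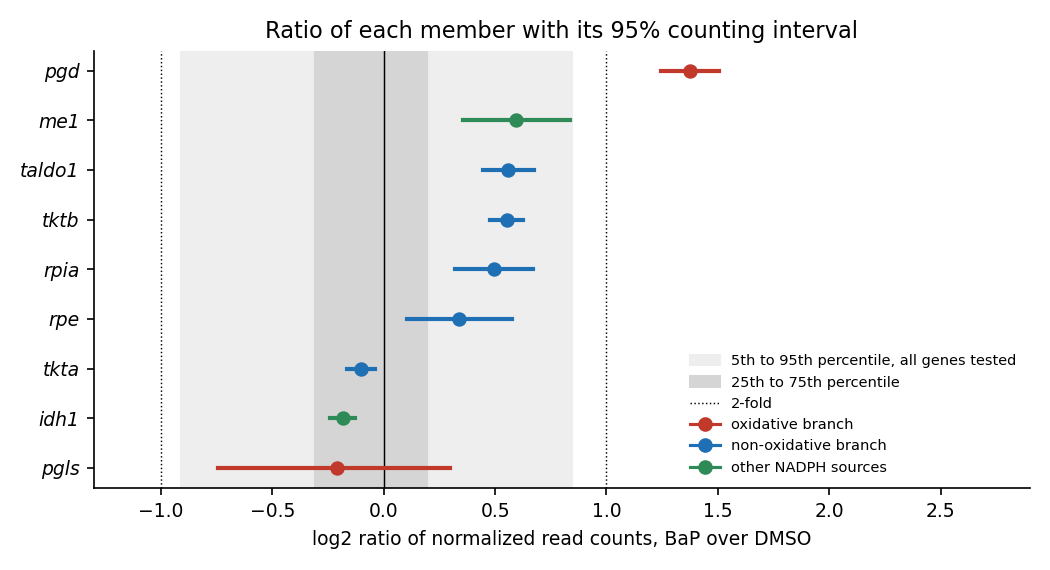
Log2 ratio of normalized read counts, BaP over DMSO, of each member (point) with its 95% counting interval (bar), against the 25th to 75th and the 5th to 95th percentile of all genes tested (grey bands) and the 2-fold limits (dotted). Only pgd lies beyond 2-fold. The 5 members between ratios of 1.26 and 1.51 sit inside the outer band, and tkta, idh1 and pgls sit inside the inner band.

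Of the other NADPH sources, the malic enzyme gene had a ratio above 1 and the isocitrate dehydrogenase gene a ratio below 1. The gene me1 (ENSDARG00000053215, chromosome 16, 32832213 to 33001153, minus strand) encodes the NADP-linked cytosolic malic enzyme, which makes pyruvate and NADPH from malate. It had 155 normalized reads with DMSO and 234 with BaP, a ratio of 1.51 (95% interval 1.28 to 1.78). For 8.69% of all genes tested the ratio was larger. The span of me1 overlaps that of prss35 on the other strand, which had 316 and 177 normalized reads. It also overlaps that of MCHR2 on the same strand, with 17 in each library. The sources used here do not say if the strand was used in counting. Without it reads shared with prss35 cannot be assigned, and the strand would not separate those shared with MCHR2. Whole spans were compared, and whether exons overlap was not examined. The span of tkta likewise overlaps that of BX248521.2 on the other strand, which had 21 and 12 normalized reads.

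The gene idh1 (ENSDARG00000025375, chromosome 9, 28103735 to 28129476, plus strand) encodes the NADP-linked isocitrate dehydrogenase of the cytosol and peroxisome. It had 3285 normalized reads with DMSO and 2890 with BaP, a ratio of 0.88 (95% interval 0.85 to 0.92). A larger ratio was found for 63.9% of all genes tested, so idh1 lay near the middle of the table. With equal totals its log2 ratio was -0.02, against -0.18 as deposited. Its mitochondrial counterpart idh2 had 6064 and 5175 normalized reads, and idh1 held 35.1% (95% interval 34.3 to 35.9) and 35.8% (35.1 to 36.6) of the estimated reads of the pair.

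In the order of the ratios pgd came first, followed by me1, taldo1, tktb, rpia and rpe, then tkta, idh1 and pgls. The interval of pgd did not overlap that of me1, and the interval of rpe did not overlap that of tkta. All other neighbours in this order had overlapping intervals, so the order among me1, taldo1, tktb, rpia and rpe is not resolved at this depth. As deposited, the members thus held 1 gene beyond 2-fold, 5 with intervals above 1 and 3 at or below equality, and this grouping crossed the branches. As deposited, each of the 3 roles held a gene on either side of equality; with equal totals the non-oxidative members were all above it.

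**Figure D3:**
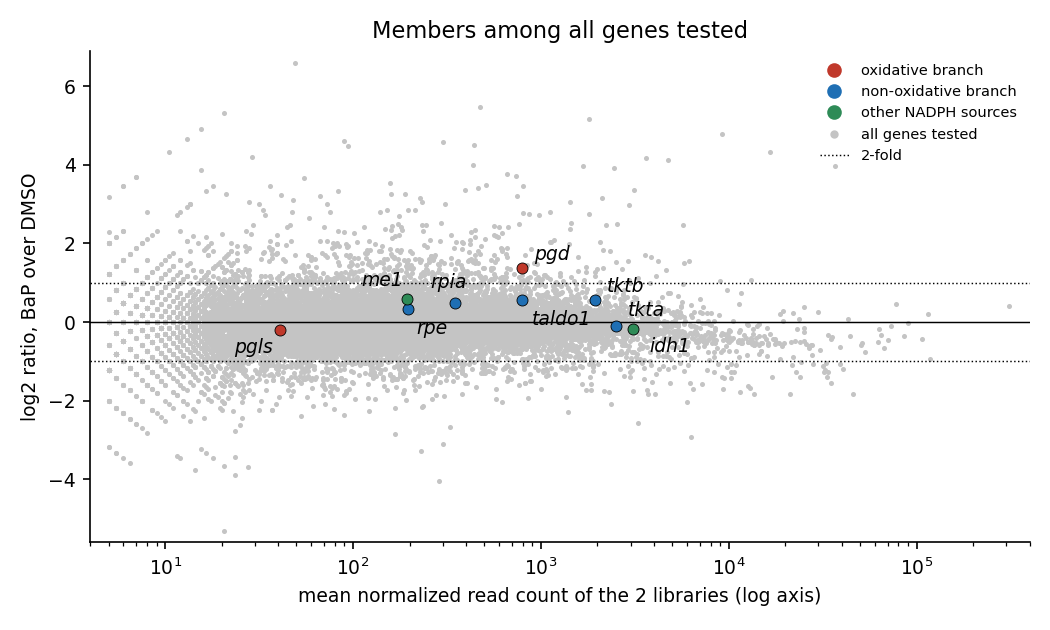
Log2 ratio, BaP over DMSO, against the mean normalized read count of the 2 libraries (log axis) for all genes tested (grey) and the members (coloured by branch), with dotted lines at 2-fold. The point of pgd stands above the 2-fold line, with a larger ratio for 1.85% of all genes tested, and the other 8 members lie between the 2-fold lines.

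Quotients within a library set pgd, and not the oxidative branch as a whole, beside other members. Since pgd had the largest ratio of the members, each quotient had to be higher in the BaP library, and only its size and interval are of interest. The quotient of pgd to tkta was 2.79 times as high in the BaP library as in the DMSO library (95% interval 2.52 to 3.08). The quotient to tktb was 1.77 times as high (1.60 to 1.96), that to taldo1 1.76 times (1.56 to 1.99) and that to rpia 1.84 times (1.58 to 2.14). Relative to idh1, pgd was 2.95 times as high (2.68 to 3.25). The difference between pgd and the non-oxidative genes tkta, tktb, taldo1 and rpia therefore exceeded counting error, while no comparison with the spread between animals is possible. The gene rpe was not paired with pgd. Of the reads of the 7 pathway members, pgd held 7.68% with DMSO (95% interval 7.12 to 8.27) and 15.3% with BaP (14.7 to 16.0).

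**Figure D4:**
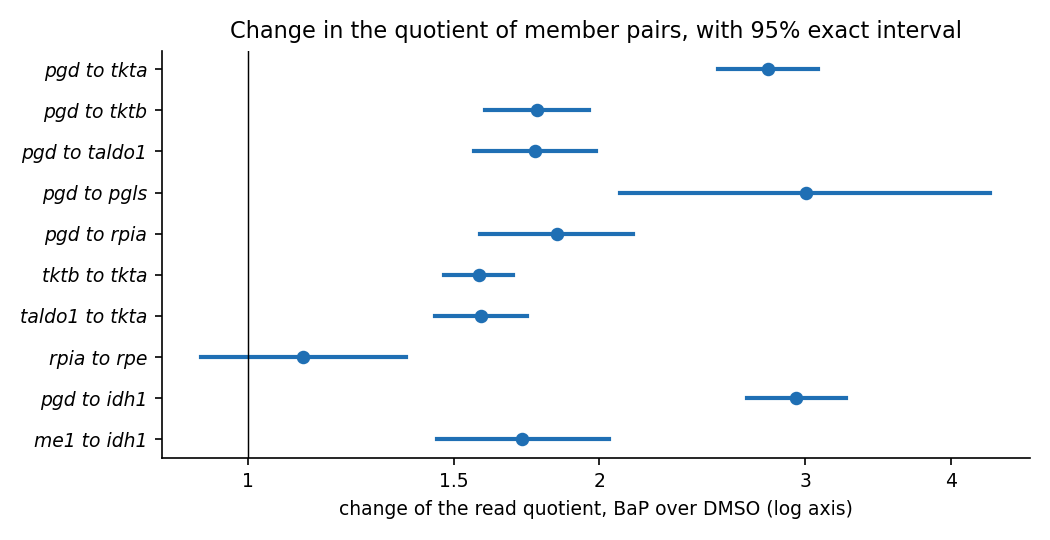
Change of the read quotient of member pairs between the libraries, BaP over DMSO (log axis), with 95% exact conditional intervals as bars; a value of 1 (line) means no change. Of the 10 pairs only that of rpia to rpe has an interval that includes 1, and the pairs of pgd with tkta, pgls and idh1 lie farthest to the right. Each pair has the gene of the larger ratio on top. Of members next to each other in the order of ratios only rpia and rpe were paired. How many intervals leave out 1 thus follows from the choice of pairs and is not a result.

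The branch medians lay closer together than the members within a branch. The median log2 ratio was 0.58 for the 2 oxidative members, 0.50 for the 5 non-oxidative members and 0.20 for the 2 other NADPH sources. Within the first of these the members lay at 1.38 and -0.21, so its median describes neither gene. Summed over members, the oxidative branch had 485 normalized reads with DMSO and 1182 with BaP, nearly all from pgd, and the non-oxidative branch 5260 and 6278.

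Other genes of the pathway were not called as deposited, and 1 was higher with equal totals. Over all genes tested, 3.75% were called higher and 4.36% lower as deposited. Of 11 measured genes of the list of other pentose phosphate genes 0 were higher and 0 lower, with 4 ratios above 1 and 7 below (median log2 ratio -0.04). Among them h6pd, for the pathway's dehydrogenase of the endoplasmic reticulum, had 597 and 686 normalized reads. Named after their values had been seen, prps1a, for an enzyme that turns ribose 5-phosphate into the nucleotide precursor PRPP, had 473 and 746 (ratio 1.58), and the ribokinase gene rbks had 39 and 24. The term Pentose phosphate pathway in the deposited annotation, taken up after the data had been seen, covered 31 genes, 7 of the members among them. Of these 31 genes 1 was higher, pgd, and 4 were lower as deposited, and 2 were higher with equal totals. As deposited, 1 higher gene of 31 is near the 3.75% of all genes tested and is not a result about the term. The lower genes included enzymes that the annotation shares with glycolysis or gluconeogenesis, with 4257 and 1817 normalized reads for fbp1b, 563 and 221 for gpib, and 4888 and 2188 for aldoab.

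Genes of the list of other NADPH supply differed in both directions. The list is broad, and a place on it does not mean that the enzyme itself makes NADPH. Of 17 gene models 2 were higher and 2 lower (median log2 ratio -0.09), against 3.75% and 4.36% of all genes tested. The genes mthfd2, for a mitochondrial methylenetetrahydrofolate dehydrogenase, and mthfd1l, for a mitochondrial formyltetrahydrofolate synthetase, were higher. Their values were 41 and 169 normalized reads for mthfd2 (ratio 4.12, 95% interval 3.09 to 5.57) and 51 and 112 for mthfd1l (ratio 2.20, 1.67 to 2.91). The genes mthfd1a, for a cytosolic folate enzyme of several activities, and aldh1l1, for the cytosolic formyltetrahydrofolate dehydrogenase that makes NADPH, were lower. Their values were 102 and 37 for mthfd1a (2.76-fold lower, 2.05 to 3.75) and 2640 and 1004 for aldh1l1 (2.63-fold lower, 2.49 to 2.78). Further folate genes of the list were not called, with 745 and 702 normalized reads for mthfd1b, 17 and 17 for mthfd2l, and 60 and 94 for aldh1l2. They were named after their values had been seen. The other malic enzyme genes were not called either, with 586 and 573 normalized reads for me2 and 1319 and 1213 for me3. Of the reads of the 3 malic enzyme genes, me1 held 7.51% with DMSO (95% interval 6.60 to 8.51) and 11.6% with BaP (10.6 to 12.7).

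Among the genes of NADPH-using enzymes, reductases of several classes were called higher. Of 28 gene models 10 were higher and 1 lower (median log2 ratio 0.51), against the 3.75% and 4.36% of all genes tested. The list was written with earlier results of these data known, and it is described here, not tested. It also holds genes whose products are not reductases, such as sqlea and cyba below. The biliverdin reductase gene blvra had 52 and 377 normalized reads (ratio 7.25). A gene model named PTGR1, for a prostaglandin reductase, had 37 and 268 (7.24), while a second model, ptgr1, was not called, with 280 and 213. The cytochrome P450 reductase gene porb, whose enzyme passes electrons from NADPH to P450 enzymes, had 1038 and 3613 (3.48). The squalene epoxidase gene sqlea had 5 and 15, and cyba, for a subunit of the NADPH oxidase, had 93 and 260 (2.80). The lower gene, akr1a1a of the aldo-keto reductases, had 24 and 5, from about 35 and 9 estimated reads. Among genes with a sum of at least 50 the list had 9 higher and 0 lower. Named after their values had been seen, the glutathione reductase gene gsr had 480 and 1098 normalized reads (2.29) and the second P450 reductase gene pora had 635 and 1447 (2.28). The ratios of gsr and pora had intervals, 2.10 to 2.50 and 2.11 to 2.46, that overlapped that of pgd. Other genes called higher on the list overlapped it too, cyba (2.30 to 3.41) and sqlea among them. The intervals of porb (3.29 to 3.68) and blvra (5.69 to 9.39) did not. Overlap with pgd was not counted over the list, and a link between pgd and these genes was not tested.

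**Figure D5:**
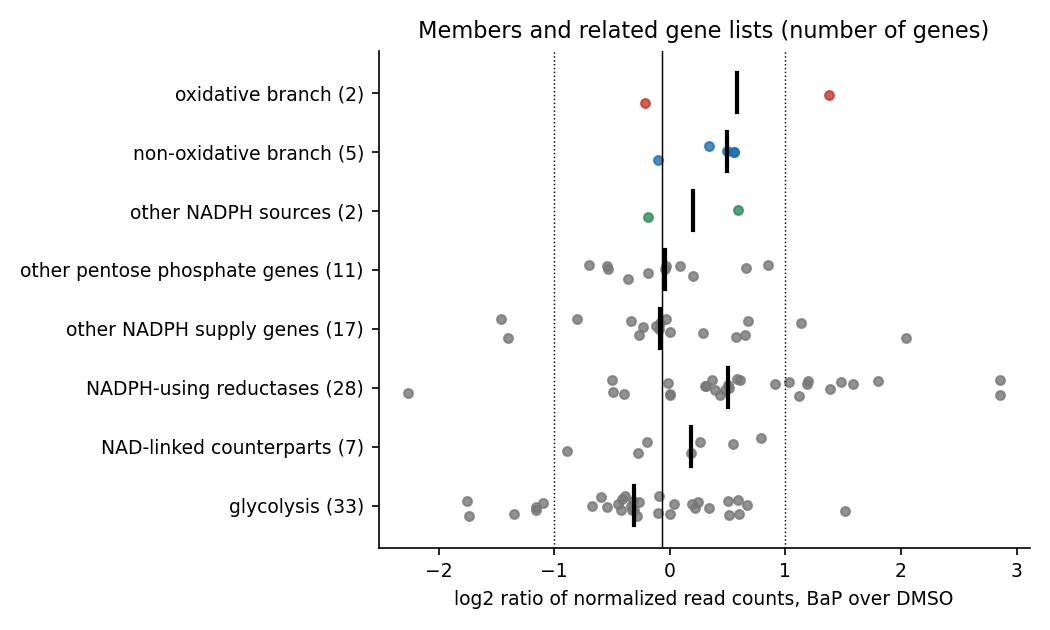
Log2 ratio of normalized read counts, BaP over DMSO, of each tested gene (points, shifted at random in height) by list, with the number of genes in brackets, the list's median as a thick bar, the median of all genes tested as a thin line and 2-fold limits dotted. The list named NADPH-using reductases, which also holds genes of other enzymes, has 10 of 28 genes beyond the right limit. Glycolysis has 6 of 33 beyond the left one. Over all genes tested the shares beyond these limits are 3.75% (right) and 4.36% (left).

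Enzymes that share substrates with the members, through NAD or through glycolysis, were set beside them. Over all genes tested, 3.75% were called higher and 4.36% lower. Of the list of 7 NAD-linked counterparts, for enzymes that share a substrate with me1 or idh1, none was called in either direction. They had 4 ratios above 1 and 3 below. Their median log2 ratio was 0.18, or -0.01 among genes with a sum of at least 50. The most abundant were mdh1aa, for cytosolic malate dehydrogenase (10780 and 5807 normalized reads), and mdh2 (6874 and 5693). Named after their values had been seen, the NAD-linked isocitrate dehydrogenase genes idh3a, idh3g and idh3b had ratios of 1.72, 1.46 and 1.14. Of 33 glycolysis genes 1 was higher and 6 lower (median log2 ratio -0.31), against 3.75% and 4.36% of all genes tested. With equal totals 3 glycolysis genes were lower. The hexokinase gene hk2, whose enzyme makes the glucose 6-phosphate used by both pathways, had 117 and 335. The lower genes farthest from equality were the pyruvate kinase genes pklr (4789 and 1424) and pkmb (3344 and 1001), the phosphoglucose isomerase gene gpib (563 and 221), aldoab, and the phosphoglycerate mutase gene pgam2 (667 and 300). The sixth, named beyond the rule, was gapdh (29523 and 13782). Whether the members differ from these lists was not tested.

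Markers of liver, of erythrocytes and of other organs also differed between the libraries, though not all of them. Over all genes tested, 3.75% were called higher and 4.36% lower. Of 23 tested gene models of the liver marker list 0 were called higher and 9 lower, or 6 lower with equal totals, and 21 had ratios below 1 as deposited. The list had a summed value of 126636 with DMSO and 81809 with BaP. Of 18 erythrocyte marker genes 11 were higher, or 12 with equal totals, and 0 lower. As deposited 16 of them had ratios above 1, and the sums were 5510 and 14820. Of these sums tspo, the gene with the largest ratio of the list, held 430 and 3817. Intervals lay above 1 for 15 of the genes and below 1 for 2, and that of gata1a (0.83 to 2.61) included 1. Both tspo and gata1a were named after their values had been seen. Within the lists, fabp10a (8255 and 8416) and tat (7622 and 7815) of liver were near equality, and the erythrocyte genes hemgn (281 and 232) and blf (53 and 32) had ratios below 1. These 4 were named after their values had been seen. No marker of the liver or the erythrocyte list was at 0 in either library. Of the 22 gene models of the whole-larva organ markers, 2 were called higher and 8 lower, or 5 lower with equal totals. The higher ones were hbae3 (1535 and 3897) and mpx (379 and 829). Among the lower ones were krt4 (71631 and 20308), prss1 (47626 and 19911) and col2a1a (11776 and 4860). These too were named after their values had been seen. In bulk RNA of whole larvae, fewer or more cells of a type cannot be told apart from less or more RNA per cell. The part of these cell types in the values of pgd, tktb, me1 and the other members was not tested.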

How the data were processed

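The authors deposited a table of normalized read counts per gene. Per the submitters' processing notes, the tools were featureCounts 1.6.3, STAR 2.6.1d and Trimmomatic 0.38 and the builds GRCz11 and danRer11, listed without their roles; the file names no build for its Ensembl coordinates. How they were scaled is not stated there. Deposited values are integers but a score scaled by the authors, not raw counts: among low values, frequencies alternate as scaled and rounded reads would. From this pattern the factor of each library was estimated by maximum likelihood as 0.679 (DMSO) and 0.544 (BaP), ahead of the next candidate by 140 and 180 log-likelihood units, and values divided by it are estimated reads. Intervals of ratios were widened for rounding; those of shares and quotients were not. Intervals exist because reads could be estimated; otherwise none would be given.

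With 1 library per treatment no test was made and no p-value is given. A gene was called at a ratio of at least 2 among genes with a sum of at least 10; a 0 counts as 3 reads. The procedure was tried on simulated reads, scaled and rounded as the estimate of the factors assumes. That simulation cannot show that the deposited values follow this model. Members and lists were chosen with earlier results of these data known. Of 174 listed symbols 164 were matched, 4 through the name table. All members are named, and of each other list the genes past 2-fold, up to the 6 farthest from equality, or else the 2 most abundant. One gene that this rule selects is not reported here. Sequences and promoter motifs were not analysed here. Alternatives were other scalings, pseudocounts, filters and folds. Computations used scipy 1.17.1, numpy 2.4.6, pandas 2.3.3 and matplotlib 3.10.9 in Python 3.11.15.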

Additional observations from a re-analysis of the deposited data

How the results depend on the processing

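The call of pgd held under all scalings and pseudocounts tried, with a log2 ratio between 1.36 and 1.54, and ended at a fold of 3, where 0 members were higher. At a fold of 1.5 there were 2 as deposited, pgd and me1. Under every other scaling tried taldo1 (ratios 1.53 to 1.66) and tktb (1.53 to 1.65) passed 1.5 as well. With a pseudocount of 10 the ratio of me1 was 1.48. Making the totals equal added 0.17 to every log2 ratio. It moved the medians of the oxidative branch, the non-oxidative branch and the other NADPH sources to 0.75, 0.66 and 0.37 and that of all members to 0.66, turned tkta to 0.06 and left no other member on the other side of equality. Over all genes tested, higher genes outnumbered lower ones under every other scaling tried, with 1120 and 647 (equal totals), 891 and 785 (median of ratios), 893 and 784 (trimmed mean), 937 and 731 (trend removed), and 943 and 742 (totals without the 100 most abundant and the mitochondrial-genome genes, added after the data had been seen). The 817 higher and 948 lower genes as deposited became 505 and 439 with a pseudocount of 10. They became 1984 and 2501 at a fold of 1.5, and 305 and 239 at a fold of 3. With a sum of at least 50 there were 552 higher and 497 lower genes. Taking the deposited values as reads, which changes only the width of the intervals, moved none of the 18 interval bounds across 1. Intervals were not recomputed under the other scalings, which shift them as a whole. With equal totals the ratios of tkta and idh1 were 1.05 and 0.99, so the place of their intervals below 1 depends on the scaling. No paired analysis was possible because each treatment has 1 library, and for the same reason none could be left out. Depth limits pgls most.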
